A study of Mus musculus with 18 samples.

Results

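Polycomb repressive complex 1 (PRC1) was described here by the transcripts of 9 genes, Ring1, Rnf2, Cbx2, Cbx7, Cbx8, Pcgf1, Pcgf6, Bmi1 and Kdm2b, chosen by gene symbol from a count table of 55487 genes. Each symbol matched 1 gene ID, and all 9 genes passed the filter on low counts in every comparison. The libraries came from ES-E14TG2a, a mouse embryonic stem cell line, and from embryoid bodies (EBs), the floating aggregates that such cells form once the self-renewal factor LIF is withdrawn. IκBα-KO cells (genotype IkappBalpha-/-) were made with a pair of CRISPR guides against Nfkbia, the gene of the NF-κB inhibitor IκBα, and IκBα-WT cells (IkappBalpha+/+) received scrambled guides, so that each mESC library is 1 clone grown from a single sorted cell in Serum/LIF. Bulk RNA-seq was made from 3 WT and 3 KO mESC clones (0 hr), from 6 EB libraries at 48 hr and from 6 EB libraries at 96 hr. The EB columns carry a clone code (D4, E14, E2, E3, H7 or H9, each at both times) that the labels do not tie to a genotype, so WT and KO EBs were not separated here and every EB group holds both genotypes.

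PRC1 places 1 ubiquitin on histone H2A (the H2AK119ub mark) and compacts chromatin at silenced developmental genes. Its catalytic core pairs a RING1 protein with 1 of the PCGF proteins, and the PCGF partner sets the form of the complex: canonical PRC1 carries a CBX protein that reads the H3K27me3 mark of PRC2, whereas variant complexes lack CBX and are brought to DNA by other subunits, such as KDM2B at CpG islands. In mESCs CBX7 is known as the main CBX subunit, and CBX2 and CBX8 are known for taking its place during differentiation.

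Library totals ran from 28287582 to 40904247 counts. Nfkbia stood at 34.2, 35.1 and 25.3 CPM (counts scaled to the size of the library) in the WT mESC clones and at 10.2, 9.44 and 10.1 CPM in the KO clones, with every KO clone below every WT clone. Pluripotency markers summed to between 3489 and 4456 CPM in the mESC libraries, to between 1628 and 2496 CPM at 48 hr and to between 683 and 1844 CPM at 96 hr, and all 10 of them had a median of at least 1 CPM at each stage. The 5 streak and mesoderm markers summed to between 14.8 and 989 CPM at 96 hr, a wide range among libraries of the same stage. Fibroblast markers summed to between 8.51 and 29.3 CPM over the 18 libraries.

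**Figure D1:**
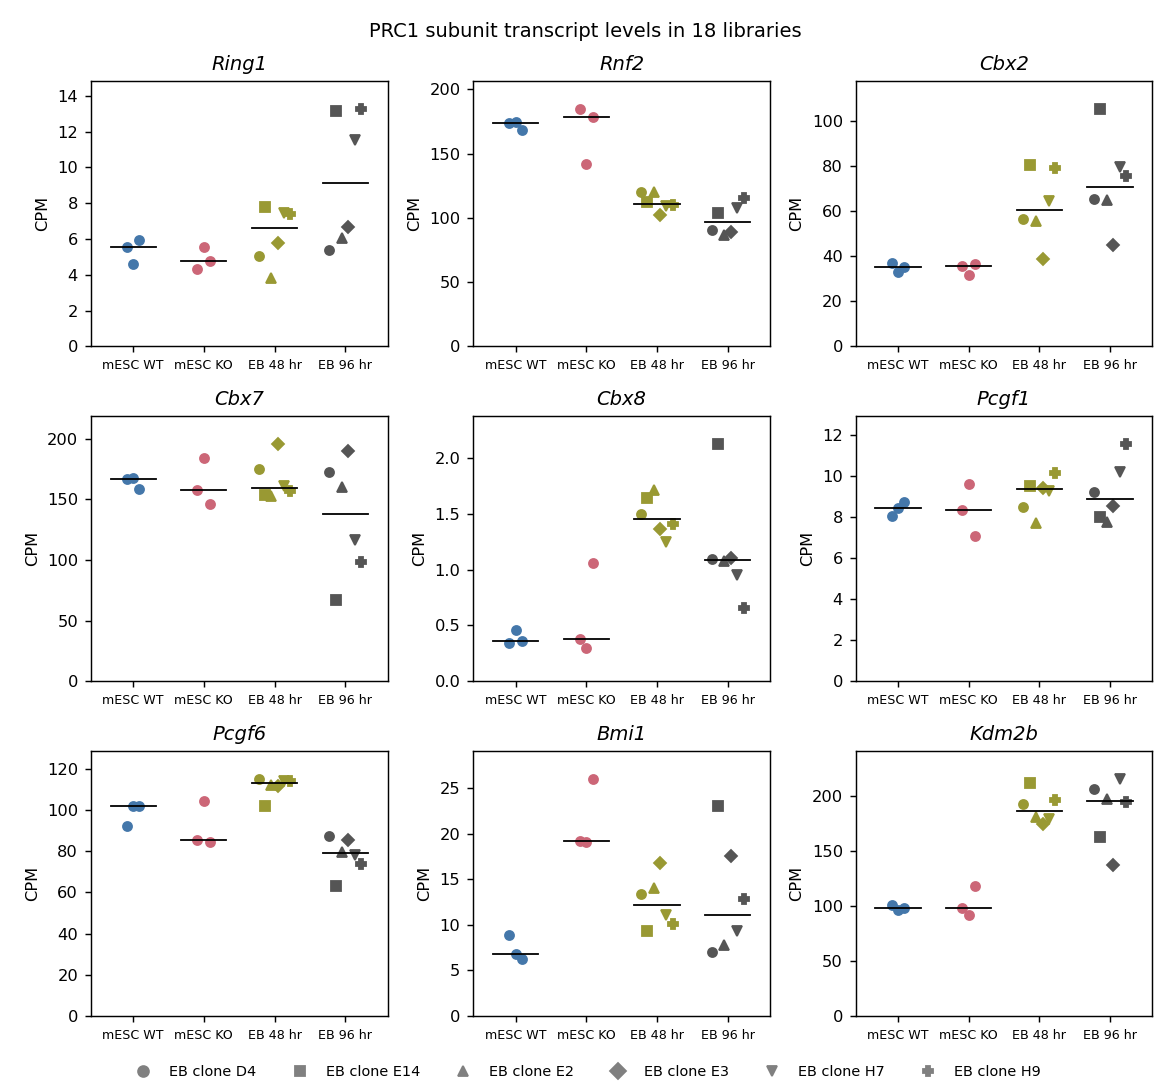
Transcript level of each PRC1 subunit in CPM (vertical axes, each starting at 0) in 3 WT and 3 KO mESC clones and 6 EB libraries at each time. Each point is 1 library, the marker shape gives the EB clone code and the line is the group median. Bmi1 separates KO (19.1 to 26.0 CPM) from WT mESCs (6.21 to 8.85 CPM), and Rnf2 is lower and Kdm2b higher in every EB library than in every mESC library.

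Levels of different genes were compared per length, as RPKM, the CPM divided by the exon length in kilobases. Among the 6 mESC libraries the mean RPKM was highest for Rnf2 (41.3 ± 3.57, SD, n = 6), followed by Cbx7 (25.2 ± 1.99), Pcgf6 (18.9 ± 1.78), Kdm2b (9.26 ± 0.83), Cbx2 (8.20 ± 0.50), Pcgf1 (5.09 ± 0.51), Bmi1 (3.62 ± 2.06), Ring1 (1.58 ± 0.20) and Cbx8 (0.13 ± 0.08). In this order the ranges of Kdm2b and Cbx2, of Pcgf1 and Bmi1, and of Bmi1 and Ring1 overlapped, and those of the other neighbours did not. At 96 hr the median RPKM of Rnf2, Cbx7, Kdm2b, Cbx2 and Pcgf6 lay between 15.7 and 23.5, a narrower band than their medians from 8.32 to 42.2 in mESCs. Some libraries at 96 hr lay outside this band, with Cbx7 between 10.3 and 29.3 RPKM and Cbx2 between 10.6 and 24.7 RPKM.

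To ask whether the loss of IκBα changes the transcripts of PRC1, KO were compared with WT mESCs. Of the 9 members, 1 was called at an adjusted p under 0.05, against 4.79% of the 21843 genes tested. Bmi1 was the member that rose (3.09% of all genes were called higher), and no member fell (1.69% were called lower, and 0 members fell at an unadjusted p under 0.05 or by DESeq2). By a rule that also asks for an absolute log2 fold change over 1, as that of the study does (there on shrunken values), Bmi1 was still called, beside 1.7% of all genes. The median log2 fold change of the 9 members was -0.02, beside 0.01 for all genes tested.

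Bmi1 (ENSMUSG00000026739, GRCm38 chr2:18677018-18686629, plus strand) encodes PCGF4, a PCGF protein of canonical PRC1. It stood at 8.85, 6.83 and 6.21 CPM in WT clones 1 to 3 and at 19.2, 19.1 and 26.0 CPM in KO clones 1 to 3. The KO clones were all above the WT clones, a separation that 28.9% of all genes tested also showed in one direction or the other. In KO against WT the log2 fold change was 1.55 ± 0.18 (SE, n = 3 per genotype), a 2.94-fold higher level in KO (adjusted p = 0.00667). The call was lost without WT clone 2 (adjusted p = 0.0729, with 0 genes called overall) or WT clone 3 (0.0585, with 34 genes called), where the log2 fold changes were 1.5 and 1.44, and in a fit over all 18 libraries in 4 groups (0.251, with 1 gene called).

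Commd3, which ends 787 bases before Bmi1 on the same strand and encodes a COMM domain protein, was also called higher in KO. Its log2 fold change was 0.62 ± 0.13 (adjusted p = 0.0363), and this call too was lost without WT clone 2, where 0 genes were called. The next protein-coding genes tested on either side were not called: Dnajc1 had a log2 fold change of 0.21 ± 0.12 (adjusted p = 0.352) and Pip4k2a 0.31 ± 0.12 (0.172). These neighbours were looked at after the value of Bmi1 was known. Over 26 genes within 5 Mb of Bmi1 the median deviation from the WT mean was between -0.19 and -0.01 on the log2 scale in the KO clones, while Bmi1 itself deviated by between 1.4 and 1.85. Whether reads that run on from Commd3 add to the Bmi1 count was not tested.

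The endoderm markers Gata4, Gata6, Sox17 and Foxa2 moved with some of the same libraries: their sum was between 2.64 and 3.66 CPM in the WT clones, 21.7 CPM in KO clone 1, 2.82 CPM in KO clone 2 and 29.1 CPM in KO clone 3, and 0 of the 4 were called by edgeR (4 had an unadjusted p under 0.05, and DESeq2 called 2). This sum lay within the WT range in KO clone 2, where Bmi1 was at 19.1 CPM. The primed epiblast markers Fgf5, Otx2, Pou3f1 and Dnmt3b moved in all KO clones. Their sum was 617, 748 and 971 CPM in WT clones 1 to 3 and 376, 450 and 394 CPM in KO clones 1 to 3. Of the 4, 3 were called lower, beside 1.69% of all genes tested. The genotypes did not overlap for 4 of the 4, beside 28.9% of all genes in either direction. The part of either marker list in the Bmi1 values was not tested. Without KO clone 2 the count of members called was 2, since Pcgf6 was then called lower in KO, with a log2 fold change of -0.21 (adjusted p = 0.0271).

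Promoters from RefSeq (GRCm38.p6), running from 250 bases before to 50 after a transcription start, were held for 7 of the 9 members. The promoter of Bmi1 is shown because Bmi1 was the member called between genotypes, and that of Cbx8 because Cbx8 had the largest difference between stages. Capitals mark CACGTG, the E-box bound by MYC and MAX family factors, which was searched on both strands and reads the same on each. Bmi1 lies at chr2:18676768-18677067 on the plus strand and Cbx8 at chr11:119040864-119041163 on the minus strand.
Bmi1: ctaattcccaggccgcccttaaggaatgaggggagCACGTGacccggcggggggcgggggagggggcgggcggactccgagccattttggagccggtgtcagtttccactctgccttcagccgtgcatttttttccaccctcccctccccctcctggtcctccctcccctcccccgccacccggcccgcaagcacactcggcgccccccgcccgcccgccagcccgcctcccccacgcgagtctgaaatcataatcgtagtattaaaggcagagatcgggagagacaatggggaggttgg
Cbx8: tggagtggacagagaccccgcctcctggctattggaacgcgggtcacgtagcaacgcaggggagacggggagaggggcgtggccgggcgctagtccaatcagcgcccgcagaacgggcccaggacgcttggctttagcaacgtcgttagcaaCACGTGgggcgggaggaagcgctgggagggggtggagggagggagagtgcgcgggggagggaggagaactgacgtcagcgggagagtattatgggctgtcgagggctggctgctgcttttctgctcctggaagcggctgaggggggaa
Each window held 1 match, 215 bases before the start in Bmi1 and 98 bases before it in Cbx8, beside 7.15% of the 32851 promoters of the same length that held at least 1. The other letters searched, TTCCCGC, a core of E2F sites, and the NF-κB consensus, matched neither window on either strand, beside 4.60% and 4.51% of all promoters. The windows held 23 and 24 CG dinucleotides against a median of 7 over all promoters. Among all members with a promoter, only Bmi1 and Cbx8 held CACGTG, and none held TTCCCGC. Of the windows of Kdm2b, 1 held 1 match to the NF-κB consensus. A match is a description of these letters and not a site of binding.

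The other members had log2 fold changes between -0.13 and 0.57 in KO against WT mESCs, and their genotype ranges overlapped. Ring1, the less abundant of the catalytic pair, had a log2 fold change of -0.13 ± 0.17 (adjusted p = 0.714), and Rnf2, the main H2A ubiquitin ligase, -0.03 ± 0.10 (0.895). Cbx2 (-0.02 ± 0.10) and Cbx7 (-0.02 ± 0.09) had narrower errors than Cbx8. Cbx8 had 0.57 ± 0.52, with KO clone 3 at 1.06 CPM and the other 5 mESC libraries between 0.29 and 0.46 CPM. The 179 genes within 5 Mb of Cbx7 on chromosome 15 had a median deviation of 0.59 on the log2 scale in KO clone 2, where Cbx7 deviated by 0.14.

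Of the 19 other PRC1 subunits and partners, 1 was called higher and 0 lower in KO mESCs by edgeR. At an unadjusted p under 0.05, 2 of the 19 had a lower level, and DESeq2 also called Skp1a lower. Beside the counts of this and the next lists, edgeR called 3.09% of all genes tested higher and 1.69% lower. Bcorl1, a partner of the PCGF1 complex, stood between 12.7 and 13.7 CPM in WT and between 22.5 and 27.7 CPM in KO clones. Such a separation was shown by 28.9% of all genes tested, in either direction. The log2 fold change of Bcorl1 was 0.92 ± 0.11 (adjusted p = 0.00741). Without WT clone 2, where 0 genes were called, this call was lost. The PCGF paralogs Pcgf2, Pcgf3 and Pcgf5 were not called. Of 20 developmental genes known as Polycomb targets in mESCs, 17 were tested and 0 were called by edgeR (6 had an unadjusted p under 0.05, and DESeq2 called 4). Their median log2 fold change was 0.33, beside 0.01 for all genes tested. The list includes the endoderm markers Gata4, Gata6, Sox17 and Foxa2, whose median log2 fold change was 2.64. These 4 were among the 6 with an unadjusted p under 0.05, and 1 of the 6, Pax6, was lower in KO. Of 6 genes of the enzymes that remove ubiquitin from H2A or of their cofactors, 0 were called by edgeR or DESeq2 and 0 had an unadjusted p under 0.05.

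**Figure D2:**
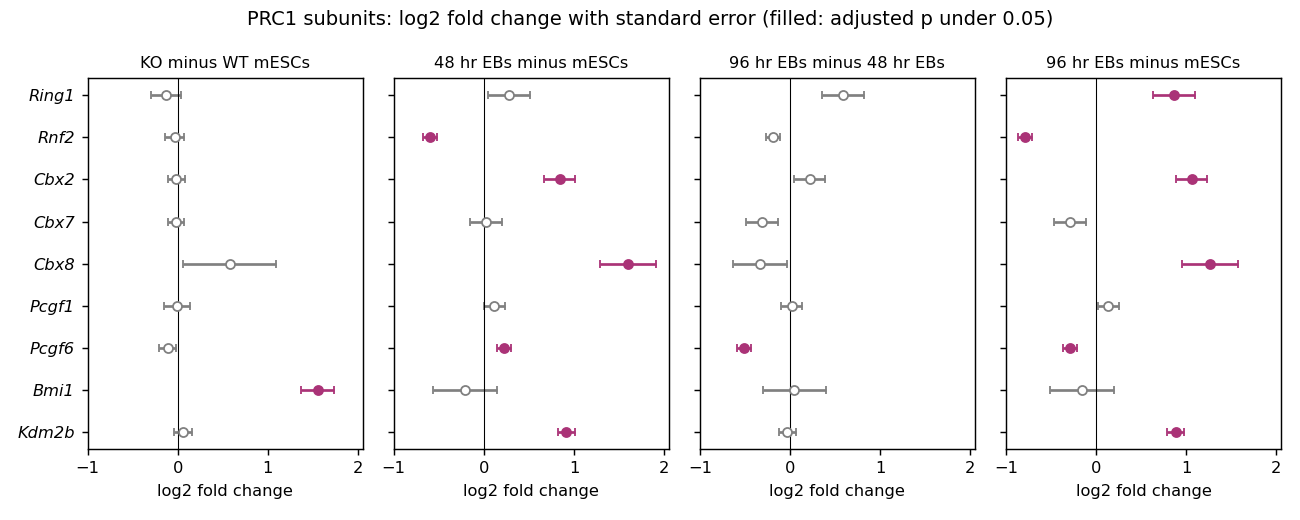
log2 fold change (horizontal axis) with its standard error for the 9 PRC1 subunits in 4 comparisons, filled where the adjusted p was under 0.05. Bmi1 is the member called in KO against WT mESCs (1.55), and Rnf2, Cbx2, Cbx8, Pcgf6 and Kdm2b are called at 48 hr against mESCs.

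To follow PRC1 through differentiation, the 6 libraries of each stage were compared, with both genotypes in each stage. These comparisons share libraries, so each is given by its own values, and a fall in bulk RNA cannot tell fewer cells of a type from less RNA per cell. Alternatives with WT or KO mESCs alone set 3 mESC libraries against EBs of both genotypes, so they mix stage with genotype and hold fewer libraries. At 48 hr against mESCs 5 of the 9 members were called, 4 higher and 1 lower, against 27.9% of the 25318 genes tested (14.9% higher and 13.0% lower). At 96 hr against 48 hr 0 members were called higher and 1 lower, against 27.7% of all genes (13.9% higher and 13.8% lower), and the 1 member higher at an unadjusted p under 0.05, Ring1, was called by DESeq2. With the clone code, which pairs the EB stages, as a block, 3 members were called between them (Ring1 and Cbx2 higher, Pcgf6 lower), where 8994 of 23836 genes were called. At 96 hr against mESCs 6 were called, 4 higher and 2 lower, against 43.0% of all genes (22.7% higher and 20.3% lower). The stages did not overlap for 4, 1 and 3 members in these 3 comparisons, beside 16.7%, 8.94% and 22.9% of all genes. With an absolute log2 fold change over 1 asked for as well, 1, 0 and 2 members were called, beside 9.57%, 11.9% and 20.8% of all genes. The median log2 fold changes of the members were 0.23, -0.03 and 0.14, beside 0.00433, -0.03 and -0.00752 for all genes.

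Among the catalytic subunits, Rnf2 (ENSMUSG00000026484, chr1:151458004-151500955, minus strand), which encodes RING1B, fell early. The mESC libraries stood between 142 and 184 CPM (median 174), the 48 hr EBs between 101.97 and 120 CPM (median 111) and the 96 hr EBs between 87.0 and 116 CPM (median 97.1). Both EB stages lay below all mESC libraries, whereas the EB stages overlapped. The log2 fold change against mESCs was -0.60 ± 0.08 at 48 hr (n = 6 per stage, adjusted p = 1.45e-05) and -0.78 ± 0.08 at 96 hr (4.62e-07), and that between EB stages was -0.18 ± 0.08 (0.0855). Exons of Trmt1l on the opposite strand cover 3.83% of the Rnf2 exon bases, and the strand setting of the counting is not given in the sources used here.

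Ring1 (ENSMUSG00000024325, chr17:34020792-34024680, minus strand) encodes RING1A, the paralog that can stand in for RING1B. It stood between 4.34 and 5.94 CPM in mESCs and between 3.81 and 7.80 CPM at 48 hr. At 96 hr it stood at 5.38, 6.07 and 6.69 CPM in clones D4, E2 and E3 and at 13.2, 11.5 and 13.2 CPM in clones E14, H7 and H9. The log2 fold change at 96 hr against mESCs was 0.87 ± 0.24 (adjusted p = 0.00645), and the stages overlapped. With WT mESCs alone as the mESC stage the adjusted p was 0.0661. Between the EB stages the log2 fold change was 0.59 ± 0.24 (adjusted p = 0.0715), and with the clone code as a block it was 0.57 (0.0115). The 5 streak and mesoderm markers were all called at 96 hr against 48 hr, beside 27.7% of all genes. These markers summed to 23.5, 23.7 and 14.8 CPM in D4, E2 and E3 and to 929, 628 and 989 CPM in E14, H7 and H9. Their part in the Ring1 values was not tested. Ring1 made up 3.73% ± 0.70 of the summed RPKM of the pair in mESCs, 6.62% ± 1.76 at 48 hr and 10.4% ± 2.82 at 96 hr (SD, n = 6), so Rnf2 stayed the main transcript of the pair throughout.

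**Figure D3:**
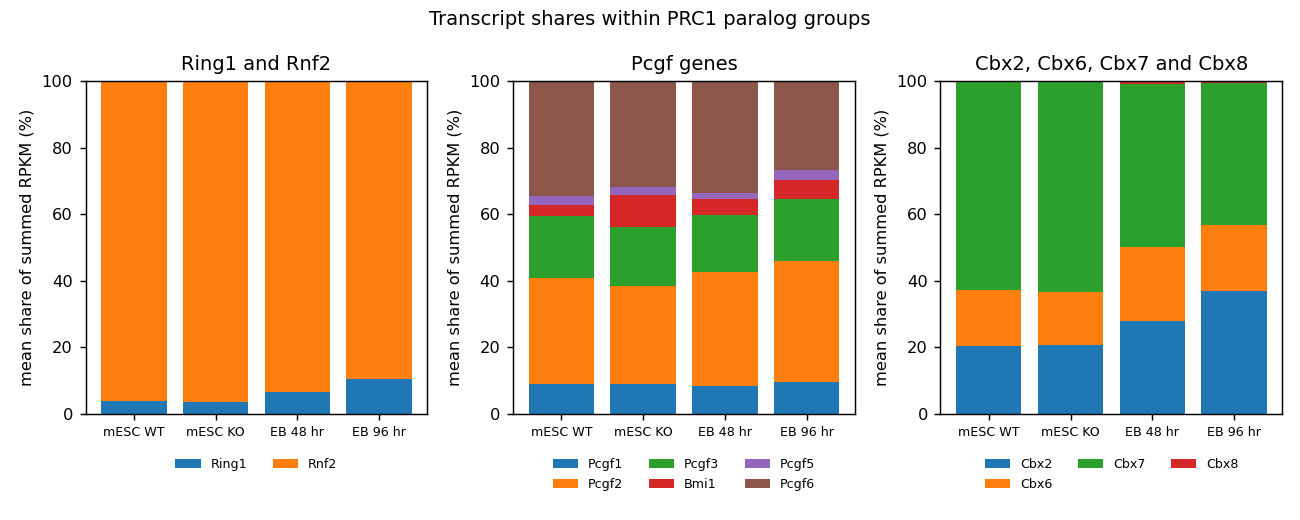
Mean share (vertical axis, % of summed RPKM) of each gene within Ring1 and Rnf2, the 6 Pcgf genes and Cbx2, Cbx6, Cbx7 and Cbx8, for 3 WT and 3 KO mESC clones and 6 EB libraries at each time. The mean share of Cbx7 is 62.4% in WT mESCs and 42.7% at 96 hr, and that of Cbx2 is 20.3% and 36.9%.

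Among the CBX genes of canonical PRC1, Cbx2 (ENSMUSG00000025577, chr11:119022962-119031270, plus strand) rose at 48 hr. It stood between 31.9 and 37.2 CPM in mESCs (median 35.4), between 38.8 and 80.5 CPM at 48 hr (median 60.6) and between 45.2 and 105 CPM at 96 hr (median 70.8). Both EB stages lay above all mESC libraries, and clone E3 was the lowest at each time (38.8 and 45.2 CPM). Against mESCs the log2 fold change was 0.84 ± 0.17 at 48 hr (adjusted p = 0.00126) and 1.06 ± 0.17 at 96 hr (9.45e-05). Between EB stages it was 0.22 ± 0.17 (adjusted p = 0.371), and 0.24 (0.0127) with the clone code as a block.

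Cbx8 (ENSMUSG00000025578, chr11:119036305-119040969, minus strand), the neighbour of Cbx2, was the least abundant member, with 615 counts over the 18 libraries. It stood between 0.29 and 1.06 CPM in mESCs (median 0.37), between 1.25 and 1.72 CPM at 48 hr (median 1.45) and between 0.66 and 2.12 CPM at 96 hr (median 1.09). All 48 hr EBs lay above all mESC libraries, whereas the 96 hr EBs overlapped with them. Against mESCs, its log2 fold change was 1.60 ± 0.31 at 48 hr (adjusted p = 0.00081) and 1.26 ± 0.31 at 96 hr (0.00321). With KO mESCs alone as the mESC stage the adjusted p at 96 hr was 0.0658.

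Cbx7 (ENSMUSG00000053411, chr15:79915807-79971119, minus strand) was not called between any stages. It stood between 146 and 184 CPM in mESCs and between 153 and 196 CPM at 48 hr, and spread to between 66.9 and 190 CPM at 96 hr. At 96 hr clones D4, E2 and E3 stood at 173, 160 and 190 CPM, inside or above the mESC range, and clones E14, H7 and H9 at 66.9, 117 and 98.5 CPM, below it. The log2 fold change at 96 hr against mESCs was -0.29 ± 0.18 (adjusted p = 0.209). The libraries with the lowest Cbx7 at 96 hr were those with the highest sums of streak and mesoderm markers given beside Ring1. In the same libraries, E14, H7 and H9, the endoderm markers summed to 205, 47.5 and 70.4 CPM (4.17 to 13.1 CPM in the other 3). The neural markers summed there to 114, 182 and 216 CPM (56.0 to 61.8 CPM) and the pluripotency markers to 683, 1365 and 1123 CPM (1619 to 1844 CPM). The 3 neural markers, Sox1, Pax6 and Nes, did not move together between stages. At 96 hr against 48 hr 1 was called higher and 1 lower, beside 13.9% and 13.8% of all genes. Pax6 was called lower (log2 fold change -1.48 ± 0.52, adjusted p = 0.0407). The part of these markers in the Cbx7 and Ring1 values was not tested. This grouping of clones was read from the values, and the share of all genes that separate the same libraries was not computed. At 96 hr Rnf2, Cbx2 and Pcgf6 also separated E14, H7 and H9 from D4, E2 and E3. Bmi1, Kdm2b, Cbx8 and Pcgf1 overlapped between these clones. Exons of Apobec3 on the opposite strand cover 1.54% of the Cbx7 exon bases.

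Per length, Cbx7 made up between 61.5% and 64.3% of the summed RPKM of Cbx2, Cbx6, Cbx7 and Cbx8 in every mESC library, between 41.4% and 57.7% at 48 hr and between 24.2% and 55.8% at 96 hr. Cbx2 made up between 16.9% and 23.7% in mESCs, between 17.5% and 33.0% at 48 hr and between 20.2% and 58.0% at 96 hr. In clones E14, H7 and H9 at 96 hr the Cbx2 share (58.0%, 39.8% and 41.9%) was above the Cbx7 share (24.2%, 38.1% and 35.7%), whereas Cbx7 stayed above Cbx2 in D4, E2 and E3. The paralog Cbx6 was called higher at 48 hr against mESCs (0.83 ± 0.15, adjusted p = 0.000338) and at 96 hr (0.51 ± 0.15, 0.00951), on the log2 scale.

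Among the PCGF genes, Pcgf6 (ENSMUSG00000025050, chr19:47033617-47050906, minus strand), whose product forms the variant complex with MGA and E2F6 that silences germ-line genes, fell between 48 and 96 hr. It stood between 84.6 and 104 CPM in mESCs (median 97.1), between 101.9 and 115 CPM at 48 hr (median 113) and between 63.1 and 87.5 CPM at 96 hr (median 79.0). All 96 hr EBs lay below all 48 hr EBs, while the mESC range overlapped with both. The log2 fold change between EB stages was -0.51 ± 0.08 (adjusted p = 0.000191), and at 96 hr against mESCs it was -0.29 ± 0.08 (0.0057). With KO mESCs alone as the mESC stage the latter missed the threshold (0.0978). At 48 hr against mESCs the log2 fold change was 0.23 ± 0.08 (adjusted p = 0.0332), a call lost with WT mESCs alone (0.27) or KO mESCs alone (0.0603), without a low-count filter (0.0781), and in 7 of 18 fits that each left out 1 library (highest adjusted p 0.106, without KO clone 1).

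Pcgf1 (ENSMUSG00000069678, chr6:83077869-83080855, plus strand), the PCGF protein of the KDM2B and BCOR complex, was not called in any comparison. It stood between 7.09 and 9.64 CPM in mESCs, between 7.72 and 10.2 CPM at 48 hr and between 7.79 and 11.6 CPM at 96 hr. Its log2 fold change at 96 hr against mESCs was 0.14 ± 0.12 (adjusted p = 0.370).

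Bmi1 in all 48 hr EBs lay above the WT and below the KO mESC clones, and at 96 hr it ranged from the WT to the KO level. It stood at 13.4, 9.33, 14.1, 16.8, 11.1 and 10.1 CPM in clones D4, E14, E2, E3, H7 and H9 at 48 hr. The same clones stood at 6.99, 23.0, 7.76, 17.5, 9.29 and 12.9 CPM at 96 hr, so D4 and E2 were lower at 96 hr and E14 was higher. Its log2 fold changes between stages were between -0.21 and 0.05, each with a standard error of 0.35. The mESC stage mixes the levels of both genotypes, and so do the EB groups. With WT mESCs alone as the mESC stage the direction against mESCs turned. There the log2 fold changes were 0.75 at 48 hr (adjusted p = 0.153) and 0.83 at 96 hr (0.0800). With KO mESCs alone they were -0.79 at 48 hr (adjusted p = 0.100) and -0.71 at 96 hr (0.103).

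Per length, Pcgf6 and Pcgf2 were the main PCGF transcripts in mESCs, at 33.1% ± 2.51 and 30.8% ± 1.72 of the summed RPKM of the 6 Pcgf genes (SD, n = 6), followed by Pcgf3 at 18.2% ± 0.87. Bmi1 made up 3.24% ± 0.71 in WT and 9.46% ± 1.99 in KO mESCs (SD, n = 3). At 96 hr Pcgf2 was at 36.3% ± 3.23 and Pcgf6 at 26.8% ± 3.22. Pcgf2, the canonical paralog of Bmi1, was called higher at 48 hr against mESCs (0.37 ± 0.09 on the log2 scale, adjusted p = 0.00422). Pcgf5 was called lower at 48 hr against mESCs (-0.34 ± 0.09, 0.00782) and higher at 96 hr against 48 hr (0.58 ± 0.09, 0.000252), and Pcgf3 was called in none of these comparisons.

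Kdm2b (ENSMUSG00000029475, chr5:122870665-122989823, minus strand), which encodes the CpG island binding subunit of the PCGF1 complex, rose by 48 hr and stayed high. It stood between 92.1 and 118 CPM in mESCs (median 98.1), between 175 and 212 CPM at 48 hr (median 187) and between 138 and 216 CPM at 96 hr (median 196). Every EB library lay above every mESC library. The log2 fold change against mESCs was 0.91 ± 0.09 at 48 hr (adjusted p = 1.24e-06) and 0.89 ± 0.09 at 96 hr (9.74e-07), and between EB stages it was -0.03 ± 0.09 (0.863). Exons of Rnf34 and of A930024E05Rik on the opposite strand cover 5.77% and 1.83% of the Kdm2b exon bases.

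**Figure D4:**
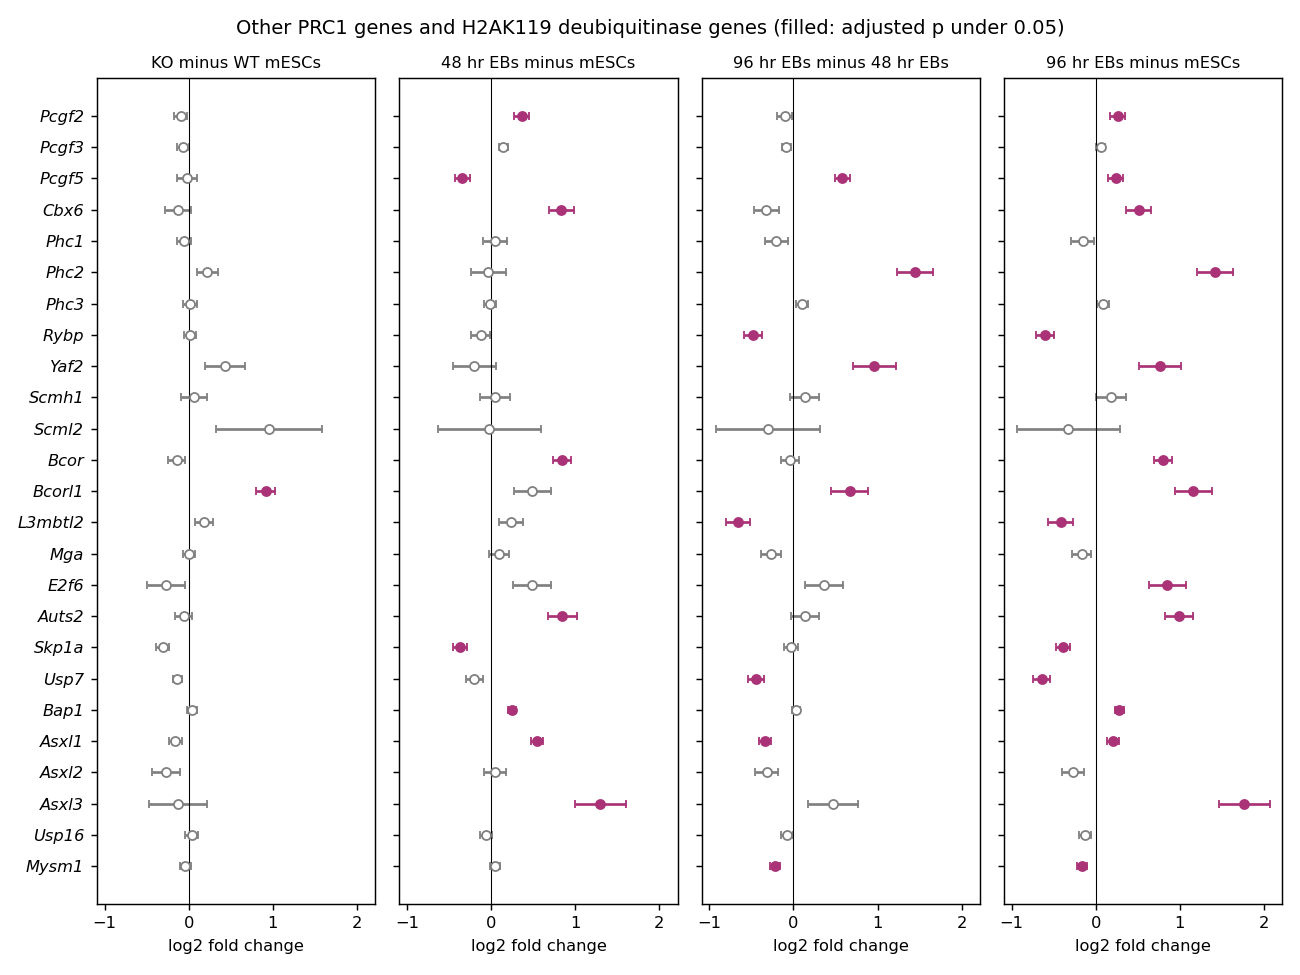
log2 fold change (horizontal axis) with its standard error in 4 comparisons, filled where the adjusted p was under 0.05. Shown are 19 other PRC1 subunits and partners and 6 genes of H2AK119 deubiquitinases or their cofactors (Bap1 to Mysm1). Bcorl1 is called in KO against WT mESCs, and Phc2 is called higher at 96 hr against 48 hr (1.45).

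Of the 19 other PRC1 subunits and partners, 4 were called higher and 2 lower at 48 hr against mESCs, 4 higher and 3 lower at 96 hr against 48 hr, and 9 higher and 4 lower at 96 hr against mESCs. That is 6, 7 and 13 of the 19, beside the 27.9%, 27.7% and 43.0% of all genes called in these comparisons. Bcor, the scaffold that joins KDM2B to PCGF1, went from between 52.2 and 69.5 CPM in mESCs to between 90.3 and 132 CPM at 48 hr (log2 fold change 0.84 ± 0.10, adjusted p = 9.76e-06). Auts2, a partner of PCGF3 and PCGF5 complexes, had a log2 fold change of 0.85 ± 0.17 at 48 hr (0.00092). Skp1a, a ubiquitin ligase adaptor found with KDM2B, fell at 48 hr (-0.37 ± 0.08, adjusted p = 0.00234). Phc2, a polyhomeotic subunit of canonical PRC1, stood between 18.8 and 35.2 CPM at 48 hr and between 39.7 and 109 CPM at 96 hr (1.45 ± 0.22, adjusted p = 0.000191). Yaf2, the paralog of the variant subunit Rybp, rose between EB stages (0.96 ± 0.25, adjusted p = 0.00933). Bcorl1 was higher at 96 hr against mESCs (1.16 ± 0.22, adjusted p = 0.000378), as was Auts2 (0.99 ± 0.17, 0.000137).

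The 6 deubiquitinase genes hold Bap1, Usp16 and Mysm1, whose products take ubiquitin off H2A, and the cofactor genes Asxl1, Asxl2 and Asxl3. Of the 6, 3 were called higher and 0 lower at 48 hr against mESCs, and 0 higher and 2 lower at 96 hr against 48 hr. At 96 hr against mESCs 3 were called higher and 1 lower. These counts stand beside the same shares of all genes (27.9%, 27.7% and 43.0%). Asxl3, a cofactor of BAP1, had the largest log2 fold change of these, 1.30 ± 0.30 at 48 hr (adjusted p = 0.00324) and 1.76 ± 0.30 at 96 hr against mESCs (0.000146). Its paralog Asxl1 had 0.54 ± 0.07 (1.58e-05) at 48 hr against mESCs, and Bap1, the enzyme itself, 0.25 ± 0.05 (0.00107).

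Of the 20 developmental Polycomb targets, 6 were called higher and 1 lower at 48 hr against mESCs, 8 higher and 3 lower at 96 hr against 48 hr, and 11 higher and 1 lower at 96 hr against mESCs, again beside 27.9%, 27.7% and 43.0% of all genes called. This list shares Gata4, Gata6, Sox17 and Foxa2 with the endoderm markers, T with the streak and mesoderm markers and Pax6 with the neural markers. Its median log2 fold changes were 0.87, 1.36 and 2.47, beside 0.00433, -0.03 and -0.00752 for all genes. Among the genes called, the largest at 48 hr were those of Dlx5 (3.98 ± 0.64, adjusted p = 0.000133), Hoxb1 (3.51 ± 0.77, 0.0021) and Msx1 (3.41 ± 0.67, 0.000799), all homeobox genes. Dlx5 and Hoxb1 were near the floor, with 1 to 4 and 1 to 7 counts per mESC library. Their means at 48 hr were 0.99 and 1.10 CPM. Between EB stages Dlx5 was called lower (-1.61 ± 0.53, adjusted p = 0.0316). T, the mesoderm regulator Brachyury, had the largest difference among the genes called at 96 hr against 48 hr (5.55 ± 1.44, adjusted p = 0.00881), and stood between 0.71 and 510 CPM at 96 hr.

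The genes whose log2 CPM most resembled the 3 members with the largest differences between 96 hr EBs and mESCs were sought among 11751 genes with a mean of at least 100 counts, over the 18 libraries, which share their 3 stages. For Cbx2 these were Clasp1 (Pearson r = 0.980), Sufu (0.980) and Auts2 (0.976). For Kdm2b they were Gm10736 (0.962), Snrpb (0.962) and Cdh24 (0.961), and for Cbx8 Arhgap1 (0.920), Vps33a (0.913) and Ncdn (0.913).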

How the data were processed

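RNA-seq was made from 18 libraries of mouse ES-E14TG2a mESCs and EBs. Per the labels and the study's methods, the authors trimmed reads with Trim Galore 0.6.6, aligned them with STAR 2.7.8 to GRCm38, assigned the uniquely mapped ones to exons with featureCounts (Subread 2.0.1) and deposited raw counts for 55487 genes. The normalized values that the authors also deposited were not used. Here, edgeR 4.0.16 (TMM, robust quasi-likelihood test, R 4.3.3) compared KO with WT mESCs over 6 libraries (21843 genes with at least 10 counts), and stages over 18 libraries (25318 genes), with Benjamini-Hochberg adjustment over all genes and calls at 0.05. CPM used TMM-scaled totals, and RPKM the merged exon length of GENCODE M21 (GRCm38). The members, lists and searched motifs were chosen with earlier results of these data known. The named genes were the 9 members, their paralogs, up to 3 called genes per list and comparison with the largest change, and 3 alike genes for each of 3 members.

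The mESC clones are independent clones by the study's methods. EB genotypes were not inferred from any value. The clone code pairs the EB stages by name, and deviations of same-coded libraries had correlations between 0.396 and 0.734. Of the 6 libraries at 48 hr, 5 correlated best with their own code at 96 hr. Deviations were taken within stages that hold both genotypes, and the part of a shared genotype in these correlations was not tested. On simulated data, changes were given only to genes with a mean of at least 100 counts. For KO against WT mESCs over 21402 genes, 25 of 67 genes changed 1.5-fold, 60 of 67 changed 2-fold and 66 of 66 changed 4-fold were called. For 96 hr EBs against mESCs over 24855 genes these were 34 of 67, 48 of 67 and 63 of 66. Recovery was not simulated for genes with fewer counts, such as Cbx8 (10 to 39 counts per mESC library). Alternatives were DESeq2 1.42.0 (test and size factors), other low-count filters, the study's fold rule, blocks, a 10 Mb window offset, other stage definitions and leaving out each library. Replicate pairs all differed beyond counting noise. 1 gene of the lists is not reported here.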

Additional observations from a re-analysis of the deposited data

Results flagged for a closer look

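In 18 groups of 6 EB libraries (9 members at 2 times), 2 had a library far from the other 5 by Dixon's test at the 95% level, which flags about 1 group in 20 by chance. Cbx8 in clone E14 at 96 hr was at 2.12 CPM, with the other 5 libraries between 0.66 and 1.10 CPM, and the gap was 0.698 of the whole range. Pcgf6 in clone E14 at 48 hr was at 101.9 CPM, with the other 5 between 111 and 115 CPM, and the gap was 0.733 of the range.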

How the results depend on the processing

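The count of members called in KO against WT mESCs was 1 in the main comparison and 0 in the fit over all 18 libraries in 4 groups, and it ranged from 0 to 2 when 1 mESC clone was left out (0 without WT clone 2 or WT clone 3, 2 without KO clone 2). With the replicate number as a block it stayed at 1. Same-numbered WT and KO clones did not deviate together over genes as a whole (correlations between -0.158 and 0.000325). These correlations cannot tell whether such clones shared handling that touched few genes. The block moved the count over all genes from 1046 to 631. All genes called ranged from 0 to 3736 when 1 mESC clone was left out (0 without WT clone 2, 3736 without KO clone 2), and DESeq2 called 2146. Requiring an absolute log2 fold change over 1 as well left 1 member (Cbx8) of 5 at 48 hr against mESCs, 0 of 1 between EB stages and 2 (Cbx2 and Cbx8) of 6 at 96 hr against mESCs. Between EB stages the count was 2 with DESeq2 and 2 with filterByExpr (Ring1 added), and 3 with the clone code as a block (Ring1 and Cbx2 added). Leaving out 1 of the 18 libraries gave between 4 and 5 members at 48 hr against mESCs, between 1 and 2 between EB stages (Ring1 added without D4, E2 or E3 at 96 hr, Rnf2 without H9 at 96 hr) and 6 at 96 hr against mESCs. The cause of these changes was not tested.

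Directions turned only for members that were not called in the comparison concerned. Cbx7 at 48 hr against mESCs was -0.0123 with WT mESCs alone and -0.00032 without a low-count filter, Bmi1 against mESCs was 0.75 and 0.83 with WT mESCs alone, Bmi1 between EB stages was -0.0293 with the block, and Kdm2b between EB stages was 0.00368 and 0.00352 with KO or WT mESCs alone, 0.00342 with filterByExpr and 0.00451 without a filter. When 1 library was left out, log2 fold changes in KO against WT mESCs ranged from -0.11 to 0.0804 for Rnf2, -0.0676 to 0.048 for Cbx2, -0.11 to 0.0496 for Cbx7, -0.21 to 0.91 for Cbx8, -0.12 to 0.0891 for Pcgf1 and -0.057 to 0.14 for Kdm2b. Likewise they ranged from -0.0323 to 0.0571 for Cbx7 and -0.38 to 0.048 for Bmi1 at 48 hr against mESCs, from -0.0551 to 0.0893 for Pcgf1, -0.16 to 0.18 for Bmi1 and -0.0738 to 0.0455 for Kdm2b between EB stages, and from -0.37 to 0.0984 for Bmi1 at 96 hr against mESCs. Cbx8, with 615 counts in all, had the widest standard error in KO against WT mESCs (0.52), and Bmi1 had it in the 3 stage comparisons (0.35 in each).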

Other observations

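Cdkn2a, the locus of p16 and p19 that BMI1 is known to repress, was looked at after the value of Bmi1 was known. It stood at 3.999, 2.49 and 2.97 CPM in WT mESC clones 1 to 3 and at 13.7, 12.5 and 14.3 CPM in KO clones 1 to 3. The genotypes did not overlap, as for 28.9% of all genes tested in either direction. The log2 fold change was 2.09 ± 0.19 (edgeR, adjusted p = 0.00489). Without WT clone 2, where 0 genes were called, the call of Cdkn2a was lost too. Cdkn2a and Bmi1 were thus both higher in the KO clones.

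At 48 hr Ring1 stood at 7.80, 7.45 and 7.40 CPM in E14, H7 and H9 and at 5.07, 3.81 and 5.80 CPM in D4, E2 and E3. The labels do not say which genotype these codes carry, and no mean, test or share of all genes was computed over subsets of them.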
